A study of Mus musculus with 2 samples.

Results

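Axon guidance ligands and receptors were taken as the probes whose gene name in the scanner files belongs to the semaphorins of classes 3 to 7, the plexins, the neuropilins Nrp1 and Nrp2, the Eph receptors, the ephrins, the netrins, the Slit ligands, the Robo receptors or the Unc5 receptors. The rule found 98 of the 55681 non-control probes on the array, for 70 of 34741 named genes and transcripts. It also takes Unc50 and Unc5cl by their names, although neither is a netrin receptor. One RNA came from the hippocampus of ICR mice, an outbred strain, at 8 weeks after 5/6Nx, the usual short form for 5/6 nephrectomy, an operation that leaves a small remnant of kidney and is used to model chronic kidney disease. The other came from the hippocampus of ICR mice at 8 weeks after a sham operation. The labels give neither age nor sex, nor the number of animals behind each RNA. Either group had 1 array, labelled with Cy3, and no replicates, so the differences given here belong to these 2 arrays and none was tested.

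Growing axons steer by secreted and membrane-bound cues that their receptors turn into attraction, repulsion or collapse of the growth cone. Class 3 semaphorins are secreted and act through neuropilins paired with plexins, whereas most other semaphorins are bound to membranes and bind plexins directly. Slits act through Robo receptors, netrins through Dcc and the Unc5 receptors, and ephrins through Eph receptor kinases, with ephrin-A ligands mainly bound by EphA and ephrin-B ligands by EphB receptors. In the adult hippocampus these molecules remain present and are known for roles at dendritic spines, in mossy fibre connections and in blood vessels.

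Values are given as the processed signal of a probe on each array and then as the difference of 5/6Nx minus sham in log2 units, each array being scaled by its 75th percentile (signals of 1263 in 5/6Nx and 1452 in sham). The error beside a difference is the technical error of the extraction software for both spots, which leaves out the variation between animals. For the probes that represent a gene it ran between 0.20 and 0.25. A gene is represented by its brightest probe and is taken as measured if both arrays had it well above background. A difference is called at 2-fold or more, which is a size and not a test.

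Of the 70 genes, 69 (98.6%) were measured on both arrays, against 74.6% of all genes and transcripts on the array. Slit3 and Epha10 were at least 2-fold higher in 5/6Nx, and Sema3a and Plxnc1 were at least 2-fold lower. Of the 25917 measured genes and transcripts, 8.18% were 2-fold or more apart, 4.89% higher and 3.29% lower. Of the 17518 with a RefSeq symbol, as the guidance genes have, 8.2% were apart, 4.18% higher and 4.02% lower. So 2 of 69 in each direction is no more than these shares. Brighter genes were apart less often, and 53 of the 69 guidance genes were above the median signal. Of the 12958 measured genes above it, 2.46% were 2-fold higher and 2.35% lower, beside 1 of the 53 in each direction. The median difference of the 69 genes was -0.0045, with quartiles of -0.26 and 0.24, and that of all measured genes was 0.05, with quartiles of -0.23 and 0.35. At 1.5-fold or more, 17 of the 69 (24.6%) were apart, against 22.6% of all measured genes and 21.8% of those with a RefSeq symbol. Of all measured genes above the median signal, 15.8% were 1.5-fold apart. The 17 include dimmer genes such as Sema3a and Epha10, so this share and theirs cover unlike sets. Differences larger than 2 times the technical error were found for 26 of the 69 (12 higher and 14 lower), a share of 37.7%, against 33.6% of all measured genes.

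**Figure D1:**
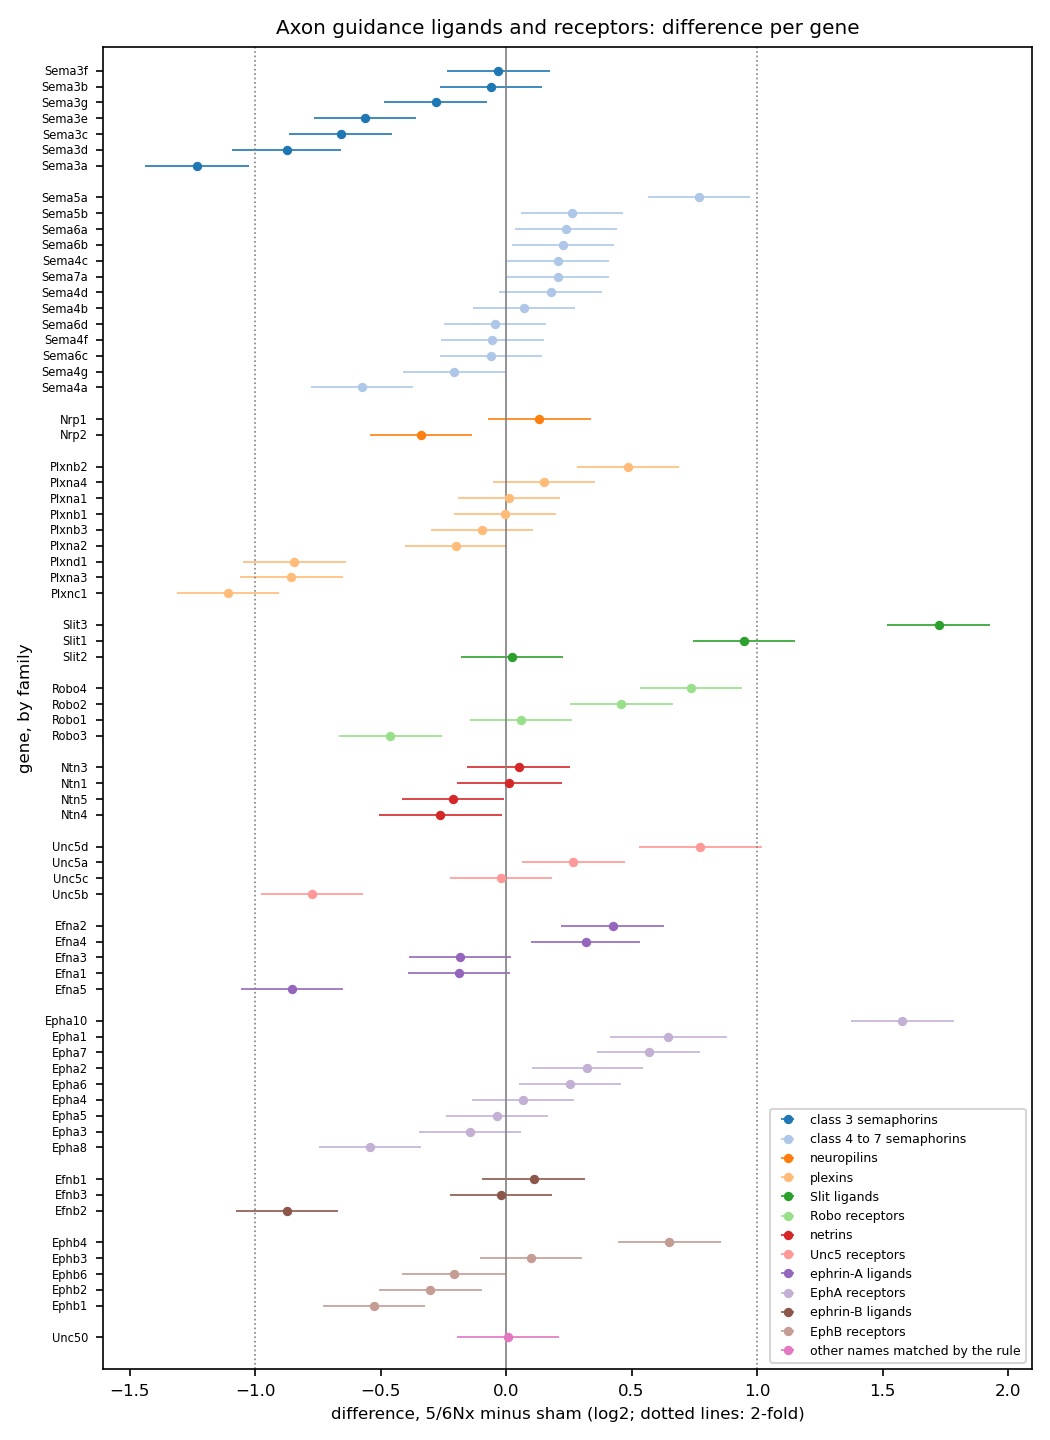
Difference of 5/6Nx minus sham in log2 units (horizontal axis) for the 69 measured genes, grouped by family (vertical axis). Points are brightest probes, bars the technical error of both spots, and dotted lines mark 2-fold. Slit3 (1.72) and Epha10 (1.58) lie beyond 2-fold on the right, Sema3a (-1.23) and Plxnc1 (-1.11) on the left, and all 7 class 3 semaphorins lie below 0.

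The probes of these 4 genes carry the calls below, so they are shown as printed on the array, with their position on the mm9 build. The Slit3 probe and the second probes of Sema3a and Plxnc1 are given whole, and of the others the first 30 of 60 bases are given. Exon and UTR annotation of the probes was not used here.
Slit3, chr11:35521559-35521618, plus strand: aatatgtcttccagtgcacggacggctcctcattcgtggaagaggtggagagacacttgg
Epha10, chr4:124563692-124563751, plus strand, first 30 bases: aatcagaaagattgggcacatagtgaaatg
Sema3a, brightest probe, chr5:13602462-13602521, plus strand, first 30 bases: gatgggaactagaaaactggagagaaaaat
Sema3a, second probe, chr5:13473453-13473512, plus strand: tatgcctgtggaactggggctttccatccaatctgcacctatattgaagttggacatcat
Plxnc1, brightest probe, chr10:94253879-94253938, minus strand, first 30 bases: ggatcccattagccaaatgcacagaatgtc
Plxnc1, second probe, chr10:94257387-94257446, minus strand: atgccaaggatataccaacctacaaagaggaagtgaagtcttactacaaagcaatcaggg

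All 7 measured class 3 semaphorins lay below 0, with a median of -0.56, and 1 of the 7 was at least 2-fold lower. Of all measured genes, 44.6% lay below 0, of those with a RefSeq symbol 49.5% and of those above the median signal 52.7%. Sema3b and Sema3f lay within the technical error of 0, and no test of the group was made. Sema3a, a secreted repellent that binds Nrp1 and is held in the perineuronal nets of inhibitory neurons, had a signal of 202 in 5/6Nx and 546 in sham. Its difference was -1.23 ± 0.21, or 2.35-fold lower. The second Sema3a probe, printed above, had signals of 43.4 in 5/6Nx and 85.8 in sham and a difference of -0.78, so both probes lay below 0 and 1 of them passed 2-fold. Without background subtraction the brightest probe stood at -0.93 and with normexp correction at -0.96, both short of 2-fold.

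Sema3d, a neuropilin ligand, had signals of 102 in 5/6Nx and 216 in sham and a difference of -0.87 ± 0.22. Sema3c, another neuropilin ligand, had 944 in 5/6Nx and 1715 in sham, a difference of -0.66, and its second probe stood at -0.61. Sema3e, which binds Plxnd1 without a neuropilin, had 960 in 5/6Nx and 1630 in sham, a difference of -0.56. None of these 3 genes passed 2-fold as reported, and all 3 differences were larger than 2 times the technical error. Sema3d lay between -1.09 and -1.03 with quantile normalization, the array median, the trend removed, spike-in scaling and in the authors' normalized table, all past 2-fold. The authors' table nearly repeats quantile normalization. With other corrections Sema3d fell short of 2-fold. It stood at -0.51 with normexp correction and at -0.45 without background subtraction. The other 3 members lay nearer to 0: Sema3g, known from blood vessels, at -0.28 with its second probe at 0.25, Sema3b at -0.06, and Sema3f, the main ligand of Nrp2, at -0.03. With normexp correction and without background subtraction 6 of the 7 lay below 0, and under the other alternatives that kept all 7 genes none lay above it.

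The 4 lowest class 3 semaphorins share a position that the choice of genes did not use. Sema3d, Sema3a, Sema3e and Sema3c lie in that order in 1 stretch of chromosome 5, with probes between 12586981 and 17236040 of mm9, and the other 3 members are on chromosomes 9 and 14. The 4 on chromosome 5 had a median of -0.77 and lay between -1.23 and -0.56, and the 3 elsewhere had a median of -0.06. The 24 other measured genes and transcripts whose probes lie in the stretch had a median of 0.20. Of the 24, 19 lay above 0, and none was 2-fold apart. They sample the stretch unevenly: between Sema3d and Sema3e only unnamed transcripts were measured, at 0.38, -0.28 and -0.01. Speer8-ps1 (0.63) and an unnamed transcript (0.59) have probes at the same position and count separately. Among the 24 were Hgf at 0.19, Pclo at 0.05 and Cacna2d1 at -0.13. Of the genes with a symbol, only Speer4f1 (-0.67) and Cacna2d1 lay below 0. The position was noticed after the values were seen, and no test of it was made.

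**Figure D2:**
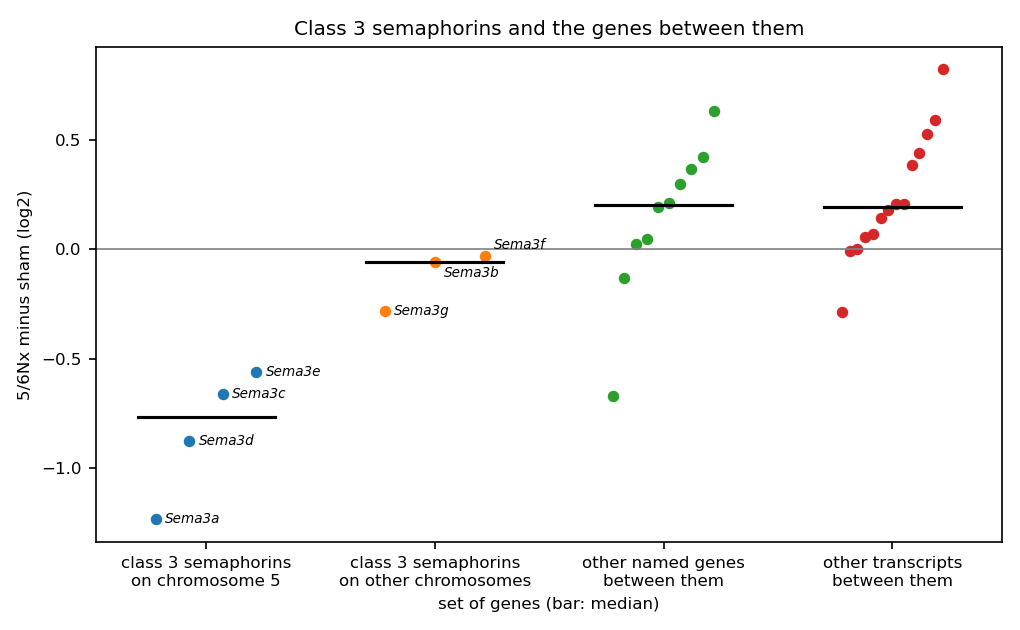
Difference of 5/6Nx minus sham in log2 units (vertical axis) for the 4 class 3 semaphorins of chromosome 5, the 3 on other chromosomes, and the genes and transcripts whose probes lie between the 4 (horizontal axis). Each point is a gene and bars are medians. The 4 lie between -1.23 and -0.56, and 19 of the 24 other genes and transcripts between them lie above 0.

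Promoters of this row of genes differ in base composition. The RefSeq promoter windows (GRCm38.p6, 250 bases before to 50 after the start) hold 41.3% G and C for Sema3a, 49.7% for Sema3d, 50.7% for Sema3e and 75.7% for Sema3c, against a median of 52.7% over 32851 windows. The lowest and the highest of the 4 are shown as the extremes in base composition. Capitals mark matches, on either strand, to the CCAAT box (CCAAT), the GC box (GGGCGG) and the TATA box (TATAAA).
Sema3a, chr5:13396534-13396833, plus strand: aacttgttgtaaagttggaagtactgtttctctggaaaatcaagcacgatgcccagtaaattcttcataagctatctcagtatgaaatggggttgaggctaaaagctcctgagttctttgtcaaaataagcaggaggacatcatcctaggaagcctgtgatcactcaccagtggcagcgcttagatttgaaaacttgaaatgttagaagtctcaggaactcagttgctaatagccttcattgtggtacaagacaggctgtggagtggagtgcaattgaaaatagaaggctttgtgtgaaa
Sema3c, chr5:17574566-17574865, plus strand: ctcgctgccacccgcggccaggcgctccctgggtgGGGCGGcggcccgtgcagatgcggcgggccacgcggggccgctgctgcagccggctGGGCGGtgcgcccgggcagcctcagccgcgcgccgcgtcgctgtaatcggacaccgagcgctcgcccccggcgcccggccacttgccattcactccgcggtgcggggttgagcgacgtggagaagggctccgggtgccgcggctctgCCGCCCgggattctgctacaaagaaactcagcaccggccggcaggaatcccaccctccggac
The Sema3c window has 42 CpG sites and 3 GC box matches, and the Sema3a window has 2 CpG sites and no match to any of the 3 motifs. Sema3e has 2 GC box matches and Sema3d 1 CCAAT match. GC box letters occur in 35.7% of all windows, CCAAT in 37.4% and TATAAA in 13.6%. These matches describe letters and not binding sites.

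Semaphorins of classes 4 to 7, which are bound to the membrane, did not share 1 direction. Of 13 measured genes 8 (61.5%) lay above 0, beside 55.4% of all measured genes and 50.5% of those with a RefSeq symbol. The median was 0.18, and none was 2-fold apart. With spike-in scaling 4 lay above 0 and the median was -0.04, and with the array median 7 lay above 0. Sema5a, known in mice for limiting synapses of adult-born granule cells, had the highest difference at 0.77 ± 0.20, with signals of 12793 in 5/6Nx and 8628 in sham. Sema4a was lowest at -0.57 ± 0.20, with 5840 in 5/6Nx and 9990 in sham. Sema4d, a ligand of Plxnb1, stood at 0.18, Sema6a at 0.24 with a dim second probe at 0.97, Sema6b at 0.23 and Sema7a, which is anchored by a lipid and binds Plxnc1, at 0.21. With scaling to spike-in probes, which lowers every gene by a constant, Sema7a stood at -0.01. The remaining genes of these classes (Sema4b, Sema4c, Sema4f, Sema4g, Sema5b, Sema6c and Sema6d) lay between -0.21 and 0.26. Among all the guidance genes, only Sema5b had measured probes on both sides of 0 with 1 of them at least 1.5-fold apart: its 3 probes stood at 0.26, 0.34 and -0.73.

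The receptors of class 3 semaphorins did not share 1 direction. Nrp1, the co-receptor of Sema3a, had signals of 609 in 5/6Nx and 639 in sham and a difference of 0.13. Nrp2, the co-receptor of Sema3f, stood at -0.34 on its brightest probe and at 0.38 on the other, which targets another transcript record of the gene. The probes of Nrp2 thus differed in sign, and no direction can be given. Among the plexin-A receptors that signal with neuropilins, Plxna3 was lower at -0.86 ± 0.20, with 1135 in 5/6Nx and 2362 in sham. It passed 2-fold with the array median (-1.02) and spike-in scaling (-1.07). Plxna1 (0.01), Plxna4 (0.15) and Plxna2 (-0.20) lay within the technical error of 0. Plxna2 has a second probe at 0.55, but the scanner files place that probe on chromosome 13 and the gene lies on chromosome 1, so its target is uncertain.

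Of the other plexins Plxnc1, the receptor of Sema7a, was lowest. Its brightest probe had signals of 1408 in 5/6Nx and 3488 in sham, a difference of -1.11 ± 0.20 or 2.15-fold lower. The second Plxnc1 probe, with 225 in 5/6Nx and 472 in sham, stood at -0.87, and the mean of both at -0.99. Plxnd1, the receptor of Sema3e, had 3900.2 in 5/6Nx and 8045 in sham, a difference of -0.84, and its second probe stood at -0.74. It too passed 2-fold with the array median (-1.01) and spike-in scaling (-1.06). Both probes of each gene therefore lay on the same side. Plxnb2 was highest in the family at 0.49, and Plxnb1 (-0.0045) and Plxnb3 (-0.10) lay near 0. In all 3 of the 9 plexins lay above 0 and the median was -0.10.

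**Figure D3:**
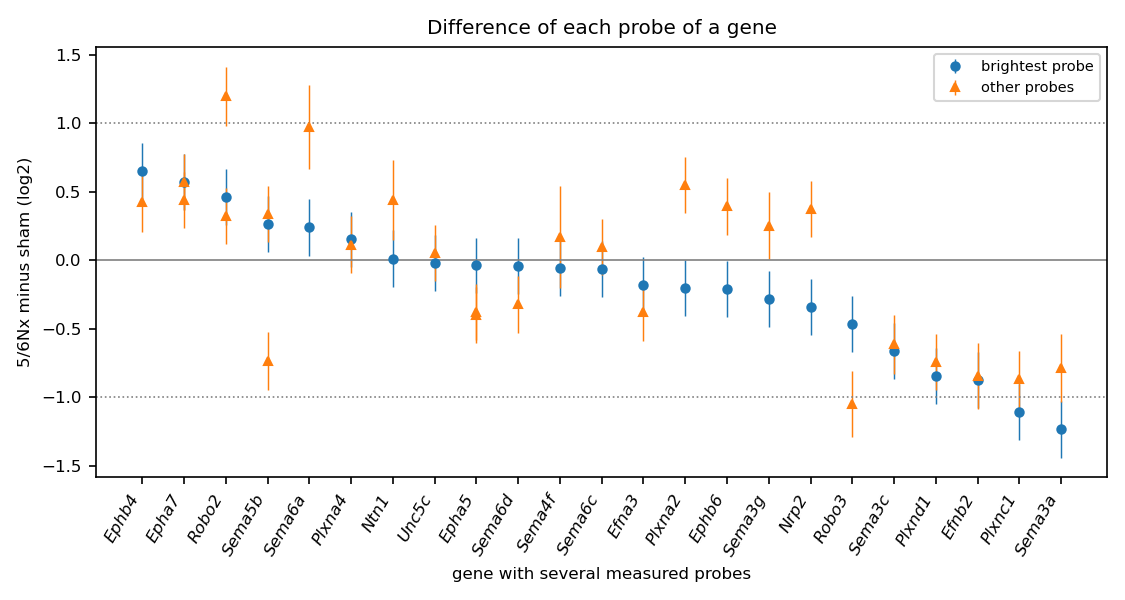
Difference of 5/6Nx minus sham in log2 units (vertical axis) for every measured probe of the 23 genes with several measured probes (horizontal axis). Circles are brightest probes, triangles other probes, bars the technical error, and dotted lines mark 2-fold. Both probes of Sema3a, Sema3c, Plxnc1, Plxnd1 and Efnb2 lie below 0, while those of Sema5b, Nrp2 and Ephb6 lie on both sides.

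Slit ligands gave the highest value of the group. Slit3, a secreted repellent, had a signal of 5077 in 5/6Nx and 1767 in sham, from 1 probe. Its difference was 1.72 ± 0.20, or 3.30-fold higher, and it stayed at 1.51 or more under each of 12 alternatives. With 1 bright probe, the filters on dim probes and the mean over probes could not move it. Slit1, which is made mainly by neurons, had 39794 in 5/6Nx and 23696 in sham, a difference of 0.95 ± 0.20, just short of 2-fold. It passed 2-fold with quantile normalization, with removal of the trend with signal and in the authors' normalized table, which nearly repeats quantile normalization. Slit2 had 1257 in 5/6Nx and 1421 in sham, a difference of 0.02, and lay below 0 when the arrays were set to their medians or to the spike-in probes. Slit2 was thus within the technical error of 0, unlike the other 2 ligands.

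The 4 Robo genes lay between -0.46 and 0.74 on their brightest probes. Robo1 stood at 0.06, and Robo2 at 0.46 on its brightest probe, with 3910 in 5/6Nx and 3268 in sham. Both other Robo2 probes lay above 0 as well, at 0.33 and, on a dim probe with 203 in 5/6Nx and 102 in sham, at 1.20. Robo3, which modulates Slit responses in commissural neurons, had 875 in 5/6Nx and 1385 in sham, a difference of -0.46, and its dim second probe stood at -1.05. Robo4, an endothelial member of the family, had 2107 in 5/6Nx and 1453 in sham, a difference of 0.74. Robo3 and Robo4 lie side by side on chromosome 9 and had opposite signs.

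**Figure D4:**
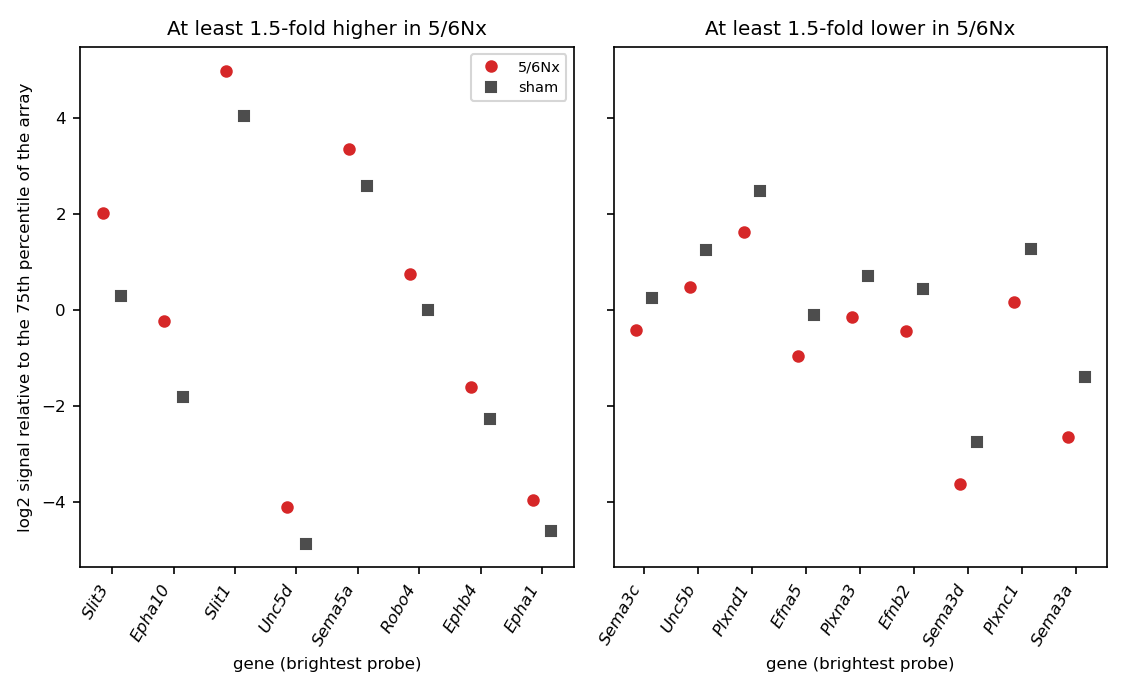
Signal of each array in log2 units relative to its own 75th percentile (vertical axis) for the 17 genes at least 1.5-fold apart (horizontal axis), with 5/6Nx as circles and sham as squares. The 8 higher genes are on the left and the 9 lower ones on the right. The gap within a gene is its difference, widest for Slit3 (1.72) on the left and Sema3a (-1.23) on the right.

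Netrins showed small differences. The 4 genes lay between -0.26 (Ntn4) and 0.05 (Ntn3), with Ntn1, the netrin best known as an attractant of commissural axons, at 0.01 with a dim second probe at 0.44, and Ntn5 at -0.21. Their receptors of the Unc5 family, which mediate repulsion, were spread more widely. Unc5b, known from vessel sprouting, had 1753 in 5/6Nx and 3442 in sham, a difference of -0.77 ± 0.20. Unc5d had the highest value at 0.77 ± 0.25, from a dim probe with 73.8 in 5/6Nx and 49.6 in sham, and stood at 0.46 without background subtraction. Unc5a (0.27) and Unc5c (-0.02) lay between them. Dcc, the attractive netrin receptor and not a member by name, had signals of 368451 in 5/6Nx and 277199 in sham and a difference of 0.61. Signals of Aldoc, an astrocyte marker, were of similar size, at 300311 in 5/6Nx and 329115 in sham. Whether the bright Dcc probe reads Dcc alone was not checked.

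Of the ephrin-A ligands, which are anchored by a lipid, none was 2-fold apart as reported. Efna5 was lowest at -0.85 ± 0.20, with signals of 649 in 5/6Nx and 1349 in sham, and it passed 2-fold with the array median (-1.02) and spike-in scaling (-1.07). Efna2 was highest at 0.43, with 571 in 5/6Nx and 489 in sham. Efna4 stood at 0.32, Efna1 at -0.19 and Efna3 at -0.18 with its second probe at -0.38. Efna1, Efna3 and Efna4 lie close together on chromosome 3 and did not share a sign.

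Among their receptors Epha10, a kinase-inactive member of the family, stood apart. Its single probe had signals of 1072 in 5/6Nx and 412 in sham, a difference of 1.58 ± 0.20, or 2.99-fold higher. The value lay between 1.36 and 1.58 under 11 alternatives, and the gene dropped out where only probes above the median signal were kept. The wider filters and the mean over probes could not move a gene with a single measured probe. Epha7 stood at 0.57, 0.57 and 0.44 on 3 probes. Epha1 stood at 0.65, from a dim probe with 80.9 in 5/6Nx and 59.4 in sham, Epha2 at 0.32 and Epha6 at 0.26. Epha4, a receptor of spine retraction on pyramidal cells, stood at 0.07, Epha3 at -0.14 and Epha5 at -0.04 with other probes at -0.40 and -0.38. Epha8 was lowest at -0.54. In all 6 of the 9 EphA genes lay above 0, and between 5 and 7 of 9 did so under the alternatives that kept all 9.

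In the B class Efnb2, a transmembrane ligand of neurons and arteries, was lower, while its vascular receptor Ephb4, known from veins, was higher. Efnb2 had 929 in 5/6Nx and 1955 in sham, a difference of -0.87 ± 0.20, and its second probe stood at -0.84. Ephb4 had 412 in 5/6Nx and 302 in sham, a difference of 0.65 ± 0.21, and its second probe stood at 0.43. Neither passed 2-fold as reported, and Efnb2 did so under scaling to spike-in probes (-1.09) and to the array median (-1.04). Efnb1 (0.11) and Efnb3 (-0.02) lay near 0. Of the receptors of neurons Ephb1 stood at -0.53, Ephb2, which binds NMDA receptors at synapses, at -0.30 and Ephb3 at 0.10. Ephb6, another kinase-inactive receptor, stood at -0.21 with a dim second probe at 0.39.

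Known pairs of ligand and receptor were set side by side. Sema3e (-0.56) and Plxnd1 (-0.84) were both lower. Sema3a (-1.23) stood beside Nrp1 at 0.13 and the plexin-A receptors Plxna1 at 0.01, Plxna2 at -0.20, Plxna3 at -0.86 and Plxna4 at 0.15, so 1 of these 5 receptors was lower by more than the technical error. Sema7a (0.21) and Plxnc1 (-1.11) differed in sign, but Sema7a lay near its technical error of 0.20 and at -0.01 with spike-in scaling. Efnb2 (-0.87) and Ephb4 (0.65) differed in sign as well. Of the other EphB receptors, on brightest probes, Ephb1 (-0.53), Ephb2 (-0.30) and Ephb6 (-0.21) lay below 0 and Ephb3 (0.10) above it. Slit3 (1.72) and Slit1 (0.95) stood beside Robo1 (0.06) and Robo2 (0.46). Robo3 (-0.46) and Robo4 (0.74) are of the same family and are not counted here as their known partners. Epha10 (1.58) stood beside ephrin-A ligands between -0.85 and 0.43. As groups, the 35 measured ligands had a median of -0.03 and the 33 measured receptors of 0.01.

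The names taken by the rule without being guidance genes were Unc50 and Unc5cl. Unc50, a membrane protein of the Golgi, stood at 0.0068. Unc5cl was above background in 5/6Nx only, with a signal of 30.9 in 5/6Nx and 16.6 in sham. Its bound was 1.98-fold higher, taking for sham the higher of its own signal and the lowest signal well above background. The technical error of this dim probe was 0.49 in log2 units, and the bound leaves it out. Unc5cl counted as 2-fold higher where dim probes were kept or where 1 array above background was enough.

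Other genes of axon guidance, taken from lists of co-receptors, cytoplasmic signalling, adhesion, myelin inhibitors and morphogens, gave 74 measured genes of 76. On brightest probes none passed 2-fold upwards and 5 did so downwards, beside 4.89% and 3.29% of all measured genes. Of those with a RefSeq symbol, 4.18% were higher and 4.02% lower. The 5 include Ptk2, whose probes differ in direction. Their median was -0.06. Gap43, a phosphoprotein of growth cones, stood at -1.38, with signals of 16710 in 5/6Nx and 49841 in sham. Ngfr, a neurotrophin receptor that also joins the Nogo receptor complex, had 214 in 5/6Nx and 578 in sham, a difference of -1.23. Chl1, an adhesion molecule that works with neuropilins, stood at -1.15 with its second probe at -0.58, and Rnd1, a small GTPase that binds plexins, at -1.03 with its second probe at -0.95. Ptk2, the focal adhesion kinase, stood at -1.25 on its brightest probe but at 0.20 and 2.38 on the others, so no direction can be given for it. Draxin and Shh were not well above background on either array.

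All 10 genes of hippocampal and pan-neuronal identity were measured on both arrays, with a median of 0.21, although Tubb3, a neuronal tubulin, stood at -1.48. Being measured does not single out the hippocampus, since all 7 genes of the thalamus and habenula list were measured too. Several other marker lists differed far more between the same 2 arrays. Leptomeningeal fibroblast markers lay below 0 in 12 of 12 genes (median -2.27), with summed signals of 19031 in 5/6Nx and 84006 in sham. Blood cell markers lay below 0 in 8 of 8 measured genes of 10 (median -3.80), with sums of 23300.1 in 5/6Nx and 327896 in sham. Choroid plexus markers lay above 0 in 13 of 13 genes (median 3.45), with sums of 289643 in 5/6Nx and 27669 in sham. Markers of CA1 pyramidal cells had a median of -0.59 (6 of 7 below 0) and those of GABAergic interneurons -0.52 (8 of 10 below 0). Microglial markers had a median of -0.38 (5 of 7 below 0, 2 of them 2-fold lower) and those of oligodendrocyte precursors -0.35 (5 of 6 below 0). Oligodendrocyte markers had a median of -0.33 (8 of 10 below 0) and ran between -2.30 (Opalin) and 1.44 (Mobp), and mural cell markers ran between -0.69 and 1.02. Astrocyte markers had a median of 0.03 and those of thalamus and habenula -0.32. Those of dentate granule cells had a median of 0.40 (8 of 9 above 0) and those of CA2 and CA3 cells 0.29 (6 of 8 above 0). The part of these cell types in the differences of Sema3a, Slit3, Plxnc1, Epha10 and the other guidance genes was not tested. In bulk tissue, fewer cells of a type and less RNA per cell cannot be told apart. Endothelial markers differed little, with a median of 0.09 and a range of -0.32 to 0.49 over 10 genes. Guidance genes known from vessels, a set chosen after their values were seen, lay on both sides: Robo4 (0.74) and Ephb4 (0.65) were above that range, Efnb2 (-0.87), Plxnd1 (-0.84) and Unc5b (-0.77) below it, and Nrp1 (0.13) and Sema3g (-0.28) within it.

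**Figure D5:**
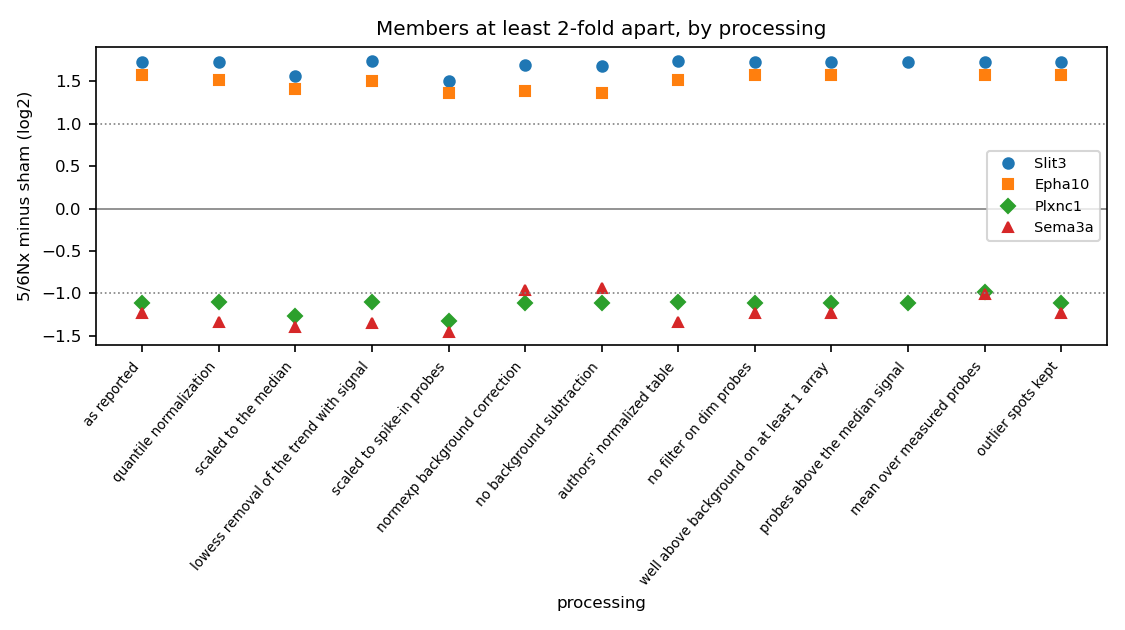
Difference of 5/6Nx minus sham in log2 units (vertical axis) for the 4 genes at least 2-fold apart, as reported and under each alternative processing (horizontal axis), with dotted lines at 2-fold. Slit3 (1.51 to 1.75) and Epha10 (1.36 to 1.58) stay above 2-fold wherever they are measured, whereas Sema3a (-1.45 to -0.93) and Plxnc1 (-1.33 to -0.99) cross it.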

How the data were processed

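Hippocampal total RNA was turned into Cy3-labelled cRNA per the labels' protocols and read on Agilent arrays of 60-base probes in 1 colour. The deposited scanner output holds linear intensity values, extracted with Feature Extraction 10.7.1.1 per the file headers (9.5.1.1 per the submitters' processing notes), with spatial and multiplicative detrending of each array switched on. The deposited table of the series holds intensity values that the authors normalized between arrays, with a median of 124 in each column, a linear scale and direction settled against the scanner values (r of 1.000 with its own array). How it was normalized is not given in the sources used here, but its columns hold nearly the same sorted values, as quantile normalization gives. The largest gap between them was 0.0323%.

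Control spots and outlier-flagged spots (97 in 5/6Nx, 105 in sham) were left out, log2 values were set to the array's 75th percentile, and spots of a probe were averaged. Of the non-control spots, 72.5% in 5/6Nx and 72.7% in sham were well above background, and none was saturated. Probes were named through RefSeq genes of GRCm38.p6 (27235 by accession, 3581 by symbol and 565 by synonym), while for 24300 the scanner files' own name was used. Probe coordinates are mm9. The median SD over replicate spots was 0.05 in 5/6Nx and 0.06 in sham. With 1 array per group no p-value was computed, and precision is limited by that number. Code was tested on simulated data. Genes were named when 2-fold apart, given only as a bound, highest or lowest in their family, when their probes differed in direction with 1 of them at least 1.5-fold apart, or as partners of a called gene. Beyond that rule, the other members are given by value or range to account for all of them. The members, lists and alternatives were chosen with earlier results of these data known. Python 3.11.15, R 4.3.3 and limma 3.58.1 (normexp) were used.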

Additional observations from a re-analysis of the deposited data

How the results depend on the processing

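No paired analysis was possible because either side holds a single array, and none could be left out. Signal over background bounds how far values of dim probes can be read. Scaling moved the median of all measured genes from 0.05 to -0.11 with the array median and -0.17 with spike-in probes, and the share of 2-fold differences that were higher from 59.8% to 41.4% and 36.1%. That share was 49.2% with quantile normalization, 47.9% with the trend removed and 49.4% in the authors' table, which nearly repeats quantile normalization. Guidance genes at least 2-fold lower, 2 as reported, then numbered 7 with the array median and 7 with spike-in probes, since both lower all genes by a constant, and the median of the group was -0.22 with spike-in probes. They numbered 1 with normexp correction, 1 without background subtraction, 1 among probes above the median signal and 1 with the mean over probes. Genes at least 2-fold higher, 2 as reported, numbered 1 above the median signal. They numbered 3 with quantile normalization, the trend removed and the authors' table (adding Slit1), where 3 were also lower (adding Sema3d), and 3 under both wider filters (adding Unc5cl). At 1.5-fold there were 8 higher and 9 lower, and at 3-fold 1 higher and 0 lower. Of the other guidance genes, 5 apart as reported, 2 were so with the mean over probes, 14 at 1.5-fold and 0 at 3-fold. The 4 called genes kept their sign under every alternative that measured them (12 each for Slit3 and Plxnc1, 11 each for Epha10 and Sema3a), all of which reuse the same 2 arrays. Filters on dim probes that kept a gene's brightest probe could not move its value. Nor could the mean over probes for Slit3 and Epha10, which have 1 probe each. Of 766 values of the 65 other measured guidance genes, 85 moved by more than the median SD between probes of 1 gene (0.20). Spike-in scaling lowers each gene by a constant larger than this SD, so all 65 moved there by arithmetic and make up most of the 85. Where a filter, threshold or scaling does not itself set a change, the cause was not tested.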
